A study of Rattus norvegicus with 10 samples.

Results

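The transcripts described here are those of 10 genes that license, fire and complete DNA replication in S phase: Mcm2, Mcm3, Mcm6, Mcm7, Pcna, Cdc45l, Cdc6, Chaf1b, Rrm2 and Tyms. They were taken as every non-control probe whose gene name in the array files is one of the 10, which gave 12 probes for 9 of the 10 genes, out of 41012 non-control probes with 35469 gene names. No probe carries the name Mcm3. Mcm2, Pcna and Rrm2 have 2 probes each and the other 6 genes have 1. The genes had been chosen because their signals differed between days of lactation in these data, so differences between days are described for them without a test. RNA came from milk whey of 3 dams of the inbred rat strain F344/N, sampled on d 2, d 9 and d 16 postpartum, with 1 array per dam and day, so that the same 3 animals supply every day. Blood of the dams was collected on d 21, and a single pooled serum RNA was hybridised, so that serum has no replicate. Dams were separated from their litters for some hours before milking, and were given oxytocin before and sevoflurane during it. The methods of the study name no other treatment. Whey is the fluid that remained after fat, cells and casein had been spun out and the sample filtered. Labelling started from 100 ng of RNA for each array, so a level is a share of the RNA put in and not an amount per volume of milk.

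Before a cell copies its DNA, Cdc6 helps to load a ring of minichromosome maintenance (MCM) proteins on each replication origin, a step called licensing, and Cdc45 later joins the ring to make it an active helicase. Pcna is the sliding clamp that holds polymerases on DNA, Chaf1b is a subunit of the chaperone that puts histones on the new strands, and Rrm2 and Tyms make deoxynucleotides, so that the last pair supply the building blocks and are not licensing or assembly factors themselves. Messengers of these proteins rise as cells enter S phase, and E2F transcription factors are known for switching many of them on. In the mammary gland the secretory epithelium multiplies in pregnancy and early lactation and then mainly makes milk.

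The promoters of 8 of the 10 genes were found in a table made from RefSeq on the rat assembly GRCr8, and none is shown for Cdc6 and Rrm2. The 250 bases before the annotated start are printed for the 3 MCM genes with a probe, which encode subunits of the same ring, and for Chaf1b, whose signal differed as widely between days. Capitals mark the box CCAAT and any of 4 words bound by E2F factors, which are TTCCCGC with the variants TTCGCGC and TTGCCGC and also TTGGCGC. Each was searched on both strands, and a longer run of capitals is an overlap of words. The coordinates are chr4:122918095-122918344 for Mcm2, chr13:42404353-42404602 for Mcm6 and chr12:22163179-22163428 for Mcm7, all on the minus strand, and chr11:46670400-46670649 on the plus strand for Chaf1b.
Mcm2: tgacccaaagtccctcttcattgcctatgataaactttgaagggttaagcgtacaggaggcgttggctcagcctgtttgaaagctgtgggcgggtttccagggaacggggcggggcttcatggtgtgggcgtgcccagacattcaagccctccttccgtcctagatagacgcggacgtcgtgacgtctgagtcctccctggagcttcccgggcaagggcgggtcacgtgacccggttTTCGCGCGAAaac
Mcm6: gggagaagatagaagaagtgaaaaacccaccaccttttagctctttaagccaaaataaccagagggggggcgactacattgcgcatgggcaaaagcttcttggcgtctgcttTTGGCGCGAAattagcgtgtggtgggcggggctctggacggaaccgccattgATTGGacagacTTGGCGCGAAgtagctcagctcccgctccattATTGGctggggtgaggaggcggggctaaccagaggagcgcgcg
Mcm7: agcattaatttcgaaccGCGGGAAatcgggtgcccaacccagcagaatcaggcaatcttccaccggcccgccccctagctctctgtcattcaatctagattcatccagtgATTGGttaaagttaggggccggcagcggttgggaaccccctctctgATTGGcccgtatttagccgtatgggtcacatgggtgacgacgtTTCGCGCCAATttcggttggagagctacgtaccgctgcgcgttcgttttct
Chaf1b: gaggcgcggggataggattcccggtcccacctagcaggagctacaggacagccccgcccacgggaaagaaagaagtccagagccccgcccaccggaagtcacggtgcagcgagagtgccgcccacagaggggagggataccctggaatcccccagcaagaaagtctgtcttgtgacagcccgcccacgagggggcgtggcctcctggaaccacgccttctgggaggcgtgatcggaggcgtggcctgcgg
In Mcm2 the 2 words overlap and end 4 bases before the start. In Mcm6 the 4 words lie in 2 overlapping pairs, from 138 to 129 and from 75 to 66 bases before the start, with a CCAAT box on the minus strand 43 bases before it. In Mcm7 an overlapping pair from 51 to 42 bases before the start runs into a CCAAT box. In the Chaf1b window neither motif was found, and those of Mcm3, Pcna and Cdc45l held CCAAT boxes alone, while that of Tyms held the word TTGGCGC from 36 to 30 bases before the start. An E2F word stood in 4 of the 8 promoters (50%), in 33 of 98 promoters of the pathway lists described further on (33.7%), and in 2540 of all 33469 promoters (7.59%). A CCAAT box stood in 5 of the 8 (62.5%), in 41 of the 98 (41.8%) and in 34% of all. The 8 windows had a median GC content of 55.8%, against 60.4% for the pathway lists and 51.2% for all. A match describes the letters in the window and not a bound factor.

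The sequences of 4 probes are given as well, because both Mcm2 probes are needed to follow their values and because Cdc6 changed least from d 2 to d 16, while Mcm6 went below background. The probes have 60 bases each and are given with their positions in rat build rn4, as the array files state them.
Mcm2, first probe, chr4:122978797-122978856, minus strand: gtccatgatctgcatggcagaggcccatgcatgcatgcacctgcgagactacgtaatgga
Mcm2, second probe, chr4:122981286-122981436, minus strand: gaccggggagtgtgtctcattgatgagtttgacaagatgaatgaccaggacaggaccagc
Mcm6, chr13:41052148-41052207, minus strand: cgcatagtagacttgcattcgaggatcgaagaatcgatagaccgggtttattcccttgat
Cdc6, chr10:87690604-87691212, plus strand: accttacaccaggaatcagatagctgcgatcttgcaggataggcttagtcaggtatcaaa
The first Mcm2 probe and the Mcm6 probe lie in 1 stretch of 60 bases. The second Mcm2 probe covers 151 bases of the genome and the Cdc6 probe 609, more than their own length, so that each crosses at least 1 exon junction. The Mcm2 probes start 2489 bases apart. Whether a probe lies in coding or untranslated sequence was not looked up.

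Signals are given as log2 of the processed signal after quantile normalization over the 10 arrays, a scaling that keeps each probe's rank on its array. The lowest signal that the scanner software marked as well above background lay between 2.12 and 4.11 on this scale on the whey arrays and at 5.84 on the serum array. All 9 genes with a probe passed the filter on dim probes, which asked for a processed signal above 20, well above background, on at least 1 whey array, and 0 of them passed it through d 2 arrays alone. All 9 were well above background on all 3 d 2 arrays, and Mcm7, Pcna, Cdc45l and Chaf1b on all 9 whey arrays. The arrays lay on 3 slides. Dams 1 and 2 on d 2 shared slide 1, dam 3 on d 2 shared slide 2 with all d 9 arrays, and slide 3, scanned on another day, carried all d 16 arrays and serum, so that d 16 and its slide cannot be told apart.

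The MCM genes had their highest signals in d 2 whey. The first Mcm2 probe gave 5.84, 5.88 and 5.67 in dams 1, 2 and 3 on d 2, then 3.32, 3.84 and 3.98 on d 9, and 1.13, 2.07 and 3.07 on d 16. The 3 days did not overlap, but the d 9 array of dam 1 and the d 16 arrays of dams 1 and 2 were not well above background. Its day means were 5.80 ± 0.11, 3.71 ± 0.34 and 2.09 ± 0.97 (SD, n = 3 for this and all following day means). The second Mcm2 probe gave 5.40, 4.96 and 4.94 on d 2, 6.07, 2.92 and 3.39 on d 9, and 2.29, 2.22 and 2.40 on d 16. Here the d 9 value of dam 1 lay above every d 2 value, while the other d 9 arrays lay below them, and no d 16 array was well above background. By this probe Mcm2 was at least 4.96-fold lower on d 16 than on d 2. This and all following bounds hold on the quantile-normalized scale and were not computed under other scalings. Both probes thus put d 16 below d 2, and they disagreed on d 9 in dam 1, the array where the first probe was at its dimmest of that day.

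Mcm6 went from clear signals on d 2 to none above background on d 16. Its signals were 7.27, 6.67 and 6.24 on d 2, 2.59, 3.97 and 4.32 on d 9, and 1.19, 2.64 and 1.28 on d 16. Of the d 9 arrays that of dam 1 was not well above background, and on d 16 none was. The fall to d 16 is therefore a bound, of at least 14.7-fold on the quantile-normalized scale. The measured means were 6.73 ± 0.52 and 1.70 ± 0.81. The d 16 value of dam 2 lay above the d 9 value of dam 1, so that d 9 and d 16 overlapped, with both of these values below background.

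Mcm7 stayed measurable on all days. It read 7.07, 6.43 and 6.28 on d 2, 4.91, 4.94 and 5.26 on d 9, and 4.74, 4.39 and 4.07 on d 16, with no overlap between any days. The step from d 2 to d 9 was -1.55 on the log2 scale and that from d 9 to d 16 was -0.64. The d 16 level was 4.57-fold below that of d 2, the smallest difference among the MCM genes. One further probe, described in the files as Mcm7 protein but named otherwise, was well above background on 2 of the 9 whey arrays and read 1.92 to 3.01, with overlap between all days. It was not counted as a member.

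Mcm3, the remaining ring subunit on the list, could be followed only through 2 probes that the files describe as Mcm3 but name by a transcript identifier. They were set apart and enter no count given here. The brighter of them, at chr9:19538668-19538727 in rn4, gave 7.88, 7.29 and 7.02 on d 2, 4.39, 4.31 and 4.68 on d 9, and 2.88, 2.86 and 2.48 on d 16, where 1 of 3 arrays was well above background. The other gave 5.39, 5.30 and 4.02 on d 2 and was well above background on no later array, a bound of at least 4.59-fold on d 9 and 4.33-fold on d 16. By both probes every d 2 value lay above every later one.

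Cdc6, the loader of the ring, was the exception among the 9 genes. It read 4.54, 4.62 and 3.95 on d 2, 3.02, 2.54 and 3.91 on d 9, and 3.69, 3.81 and 3.44 on d 16. The d 9 value of dam 3 came within 0.04 of its d 2 value, and 2 of 3 dams had more signal on d 16 than on d 9. The day means were 4.37 ± 0.37, 3.15 ± 0.70 and 3.65 ± 0.18, and d 16 was 1.65-fold below d 2. Only 1 d 9 array and 2 d 16 arrays were well above background, so most of its later values are near the floor of the array. Its mean was higher on d 16 than on d 9 after quantile normalization, and lower by -0.23 (log2) on the spike-in scale. On d 2, too, its processed signals were no higher than 12.2 to 20.6 before scaling.

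Cdc45l, which joins the loaded ring, is named Cdc45 in current annotation. It read 8.95, 8.13 and 7.71 on d 2, 6.41, 6.45 and 6.35 on d 9, and 5.10, 4.81 and 4.98 on d 16, well above background throughout. The days did not overlap, and within d 9 and within d 16 the dams lay close together, with SDs of 0.05 and 0.14 against 0.63 on d 2. The d 16 level was 9.85-fold below that of d 2.

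Pcna, the clamp, was measured on every whey array by both of its probes. The probe used for the gene gave 9.87, 9.28 and 8.81 on d 2, 7.64, 8.13 and 8.06 on d 9, and 6.86, 7.52 and 7.17 on d 16. Its second probe gave 7.98, 7.36 and 6.75, then 5.87, 5.94 and 6.18, and then 5.41, 5.21 and 4.96. Neither probe had overlapping days, and they gave nearly the same difference, 4.40-fold and 4.50-fold from d 2 to d 16. Loci described in the files as similar to Pcna, with 2 probes, were well above background on no array.

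Chaf1b, the histone chaperone subunit, had the widest difference among members that were measured on every whey array. It read 9.05, 8.55 and 7.90 on d 2, 5.71, 5.63 and 5.94 on d 9, and 3.96, 3.67 and 4.16 on d 16. All 3 days were apart from each other, with the order of the dams turned between d 2 and d 16, where dam 3 was highest. Day means were 8.50 ± 0.58, 5.76 ± 0.16 and 3.93 ± 0.25, a 6.68-fold difference from d 2 to d 9 and 23.8-fold from d 2 to d 16.

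Rrm2 and Tyms, the nucleotide enzymes, followed the same order of days. Rrm2, the small subunit of ribonucleotide reductase, read 7.18, 6.19 and 5.68 on d 2, 4.50, 4.57 and 4.15 on d 9, and 1.19, 2.72 and 2.54 on d 16. Mcm6 and Rrm2 were the 2 genes that were well above background on all d 2 arrays and on no d 16 array, as were 0.582% of all probes tested. For Rrm2 the bound was at least 11.1-fold from d 2 to d 16 and 2.89-fold from d 9 to d 16. Its second probe gave bounds of at least 8.77-fold and 3.22-fold. Tyms, thymidylate synthase, read 5.96, 5.10 and 4.87 on d 2, 3.18, 4.21 and 4.02 on d 9, and 2.46, 3.73 and 2.90 on d 16. The d 16 value of dam 2 lay above the d 9 value of dam 1, so these days overlapped. Tyms was well above background on 2 of 3 d 9 arrays and 1 of 3 d 16 arrays, and its means gave a 4.86-fold difference between d 2 and d 16.

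**Figure D1:**
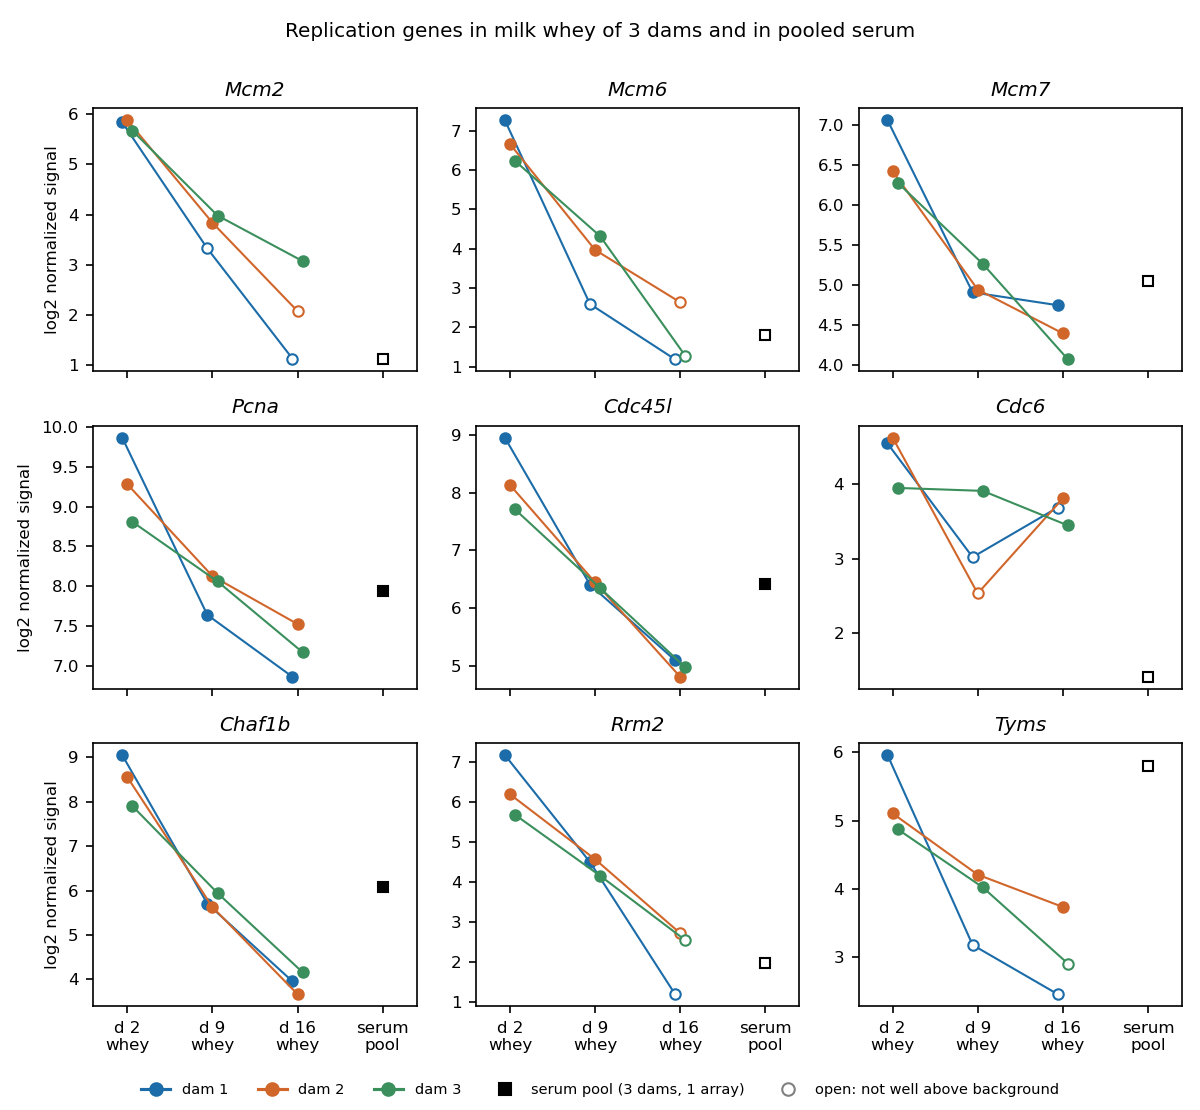
Log2 normalized signal of 9 replication genes (1 probe each) in whey of 3 dams on d 2, d 9 and d 16 and in the serum pool, where lines join the arrays of a dam and open symbols were not well above background. Every d 2 value lies above every d 16 value in each panel, and in Cdc6 alone dams 1 and 2 turn upward after d 9.

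Over the 9 genes the median log2 change was -1.86 from d 2 to d 9 (range -3.10 to -1.22), -3.30 from d 2 to d 16, and after d 9 it was -1.44 by d 16. Mcm6 and Rrm2 enter the last 2 medians with d 16 signals below background, and with both genes at their bounds these medians were -3.30 (range -4.57 to -0.72) and -0.78 (range -1.83 to 0.49). The medians over the 16849 probes tested were 0.11, 0.04 and -0.06 in the same order. Values did not overlap and were lower on the later day for 9, 9 and 6 of the 9 genes, where 14.6, 22.3 and 17.6% of all probes did so. Since the genes were picked by these very contrasts, nothing is read from the counts, and both contrasts with d 2 use the same d 2 arrays. In 6 genes, Mcm2, Mcm7, Pcna, Cdc45l, Chaf1b and Rrm2, all d 2 values lay above all d 9 values and these above all d 16 values, an order found in 2.84% of all probes. For Mcm2 the order held for the first probe and not for the second. That first probe was not well above background in dam 1 on d 9 and in dams 1 and 2 on d 16. Rrm2 was not well above background on any d 16 array.

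After quantile normalization the step to d 9 was the larger one in 8 of the 9 genes, but in 1 without scaling and in 0 on a scale set by spike-in control probes. On the spike-in scale the median of the first step was -0.42 and that of the second -2.37. After quantile normalization the first step made up 56.2 to 71.0% of the whole change to d 16 in Mcm2, Mcm6, Mcm7, Pcna, Cdc45l, Chaf1b and Tyms, although for Mcm6 the d 16 end of the scale is set by signals below background. Rrm2 had 46.3% of its change by d 9, and its d 16 end was below background as well. Cdc6 passed its d 16 level by d 9 and came back by 0.49. Over the 9 whey arrays each of the 8 genes other than Cdc6 correlated with the mean of the remaining members at r = 0.945 to 0.988. For Cdc6 r was 0.568. The genes had been chosen for their differences between these days, so high values of r follow from the choice. The arrays also share days and dams, and the values only describe likeness.

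**Figure D2:**
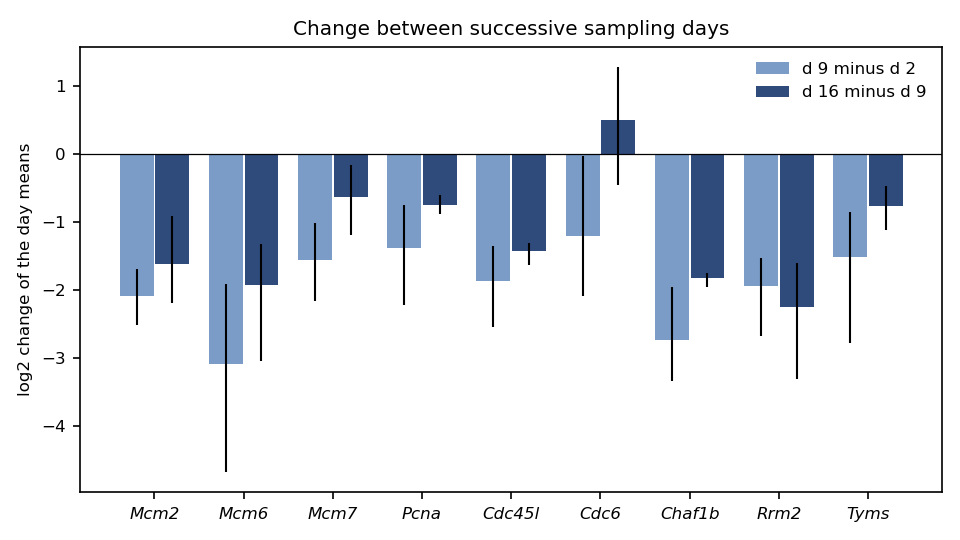
Log2 change of the day means of 9 replication genes in the first step, d 2 to d 9, and in the second, d 9 to d 16, after quantile normalization, with lines from the lowest to the highest change in a single dam. Cdc6 is on this scale the only gene with a mean above 0 in the second step, at 0.49, and the d 16 means of Mcm6 and Rrm2 rest on signals that were not well above background.

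The size of the first step depended on how arrays were made comparable. The d 2 arrays tended to be dimmer, with a 75th percentile of the processed signal of 12.5 to 28.0, against 21.2 to 83.2 on d 9 and 21.5 to 40.6 on d 16. Before any scaling the mean log2 processed signal of the 9 genes was 6.33, 6.57 and 6.64 on d 2 in dams 1, 2 and 3, then 4.40, 5.72 and 6.92 on d 9, and 3.32, 4.59 and 4.13 on d 16. Without scaling, then, the d 9 array of dam 3 lay above all d 2 arrays, while every d 16 array lay below them. Chaf1b gave processed signals of 274, 343 and 304 on d 2, 46.9, 91.7 and 236 on d 9, and 14.3 to 25.1 on d 16, without overlap. Pcna gave 501, 562 and 577 on d 2 but 186, 551 and 1067 on d 9, so that its d 9 signals spanned those of d 2, and 106, 331 and 216 on d 16.

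Scaled to 9 spike-in control probes, the 9 genes had a median difference of -0.42 (log2) between d 9 and d 2, where 0 genes kept their days apart, and of -2.80 between d 16 and d 2, where 8 did. That scaling moved the median of all probes tested to 1.52 for the first pair of days and to 0.58 for the second. Set against the median of all probes the members lay lower by a log2 difference of -1.94 and -3.38, where quantile normalization gave -1.98 and -3.34. Spike-in scaling shifts all probes of an array by the same amount, so -1.94 and -3.38 are also the unscaled values. They are thus no separate check by the spike-in probes. With normexp background correction the differences from the median of all probes were -0.79 and -1.08. That correction added an offset of 50, which makes log2 differences between dim signals smaller. On the spike-in scale 7 of the 9 genes had a lower mean on d 9 than on d 2, and Pcna and Cdc6 had differences of 0.09 and 0.05 in the other direction. The difference between d 2 and d 16 had the same direction for all 9 genes under each scaling run.

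**Figure D3:**
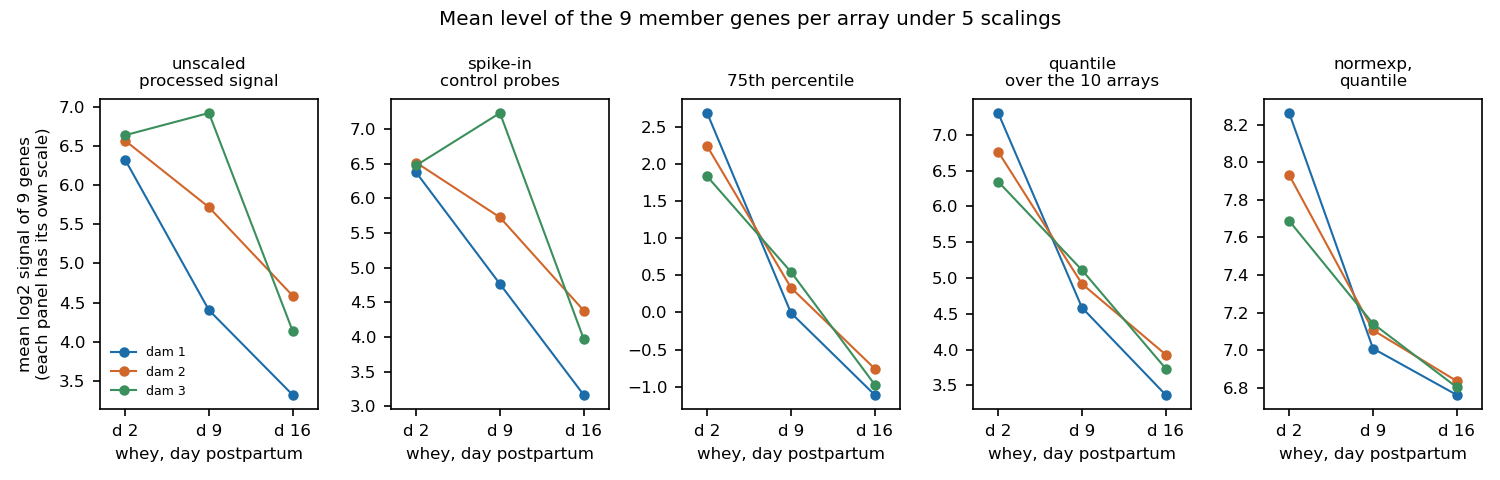
Mean log2 signal of 9 replication genes per whey array, unscaled and under 4 scalings, with lines joining the arrays of each dam and an own axis in every panel. In the first 2 panels dam 3 is highest on d 9, at 6.92 and 7.23, and in the other 3 panels every dam is lower on each later day.

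Slides could be compared for d 2 and d 9. Within slide 2, the mean of the 3 d 9 arrays lay below the d 2 array of dam 3 for all 12 member probes, by log2 differences of -2.61 for Mcm6 to -0.75 for the second Pcna probe. The median over the 9 genes was -1.27, and that over all probes tested 0.05. For 11 of these probes each d 9 array also lay below the d 2 array, by at least 0.04 in Cdc6, and for the second Mcm2 probe dam 1 lay 1.13 above it. The d 2 values of dam 3 were the lowest of that day for all 12 probes. A single d 2 array stands for the day here, so no test is attached.

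Differences between dams had played no part in the choice of the genes and were tested with the day in the model. Of the 9 genes 0 were called between dams by the limma F test after adjustment and 0 at an unadjusted p under 0.05. The smallest limma p was 0.178, for Mcm2, with an adjusted p of 0.597. Over all probes tested, 0 (0.00%) were called after adjustment and 1775 (10.5%) at an unadjusted p under 0.05. Scaled to the spike-in probes 1 member gene was called between dams, and without scaling 3 were. How many of all probes were called under those scalings was not recorded, so nothing is read about the members from these counts.

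In serum, 3 of the 9 genes were well above background, namely Pcna, Cdc45l and Chaf1b, where 31.9% of the probes tested in whey were. Their processed signals were 24.0, 10.1 and 8.50. The lowest d 2 whey signals were 501, 257 and 274. The serum array was dim, with a 75th percentile of 4.11, and after quantile normalization d 2 whey exceeded serum by 1.38 for Pcna, 1.85 for Cdc45l and 2.42 for Chaf1b on the log2 scale, while d 16 whey differed from serum by -0.75, -1.45 and -2.16. On the spike-in scale d 2 whey exceeded serum by 4.44, 4.62 and 5.10, and d 16 whey exceeded it too, by 2.84, 1.82 and 1.00, so that the direction between d 16 whey and serum turned with the scaling. Of the others, Mcm6, Mcm7 and Rrm2 were at least 1.85-fold, 1.68-fold and 1.42-fold higher in d 2 whey, and for Mcm2, Cdc6 and Tyms the d 2 mean lay under the serum floor, so no fold is given. The values for Pcna are those of the probe used for the gene. Its second probe was not well above background in serum, and by it Pcna was at least 2.87-fold higher in d 2 whey. Serum had no replicate and no test.

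Other genes of the pathway were taken from 5 lists outside the members, together 123 genes, of which 110 had a probe and 88 were bright enough in whey to be tested. Of these 88, 1 had passed the filter through d 2 arrays alone. From d 2 to d 16, 58 fell (65.9%) and 3 rose at a limma adjusted p under 0.05, with 27 not called, where 12.4% of all probes fell and 16.0% rose. The median log2 change of the 88 genes was -1.03, against 0.04 for all probes. Between d 2 and d 9, 29 fell and 0 rose, against 6.36 and 11.3% of all probes. Of these 29, 7 were helicase loading genes, 9 fork genes, 4 chromatin assembly genes, 8 nucleotide genes and 1 a control gene. After d 9, 5 fell and 1 rose by d 16, against 0.855 and 0.564% of all probes. The lists were drawn up with earlier results of these data known and hold known partners of genes that had been picked for their change. The calls therefore describe these genes and are no independent test. The 3 contrasts also share arrays, so the counts are not separate lines of evidence.

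Among helicase loading genes 10 of 15 fell from d 2 to d 16 and 0 rose. Cdt1, which loads the ring together with Cdc6, read 5.90, 5.61 and 4.86 on d 2 and 1.10, 1.03 and 1.03 on d 16, at least 6.35-fold lower (limma adjusted p 0.00032). Gmnn, or geminin, the inhibitor of Cdt1, was at least 6.33-fold lower (limma adjusted p 0.00168). Cdt1 and its inhibitor thus went the same way. The other ring subunits that could be tested fell too, Mcm5 at least 4.03-fold and Mcm4 at least 3.63-fold, the latter with 2 of 3 d 2 arrays above background. They are named because they complete the ring. Of 4 origin recognition genes tested, Orc6 was called, at least 2.35-fold lower.

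At the fork, 17 of 24 genes fell and 0 rose. Dscc1, part of a clamp loader, read 6.97, 6.16 and 5.90 on d 2, 4.15, 4.63 and 4.44 on d 9, and 1.24, 1.22 and 1.51 on d 16, at least 11.7-fold below d 2 (limma adjusted p 0.00012). Top2a, the topoisomerase that untangles finished strands, changed by -3.02 on the log2 scale (SE 0.47, limma adjusted p 0.00365) with 1 d 16 array above background. Of the chromatin assembly genes 10 of 13 fell and 0 rose. Hells, a chromatin remodeller, changed by -3.46 (SE 0.55, limma adjusted p 0.00389), and the histone chaperone gene Asf1b was at least 2.10-fold lower (limma adjusted p 0.000549), with 2 of 3 d 2 arrays above background for that bound. In nucleotide supply 15 of 19 fell. Rrm1, the large subunit that pairs with Rrm2, changed by -3.50 (SE 0.44, limma adjusted p 0.00169). Tk1, the thymidine kinase of S phase, was at least 2.99-fold lower (limma adjusted p 0.00258), again with 2 of 3 d 2 arrays above background. Tk2, its mitochondrial counterpart, was the 1 gene of the list that rose, by 0.40 (SE 0.12, limma adjusted p 0.0374).

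The control genes of G1 and S phase were mixed, with 6 of 17 lower and 2 higher on d 16. Ccna2, the cyclin A of S phase, read 8.05, 7.48 and 6.97 on d 2 and 2.89, 4.16 and 3.59 on d 16, a change of -3.95 (SE 0.37, limma adjusted p 0.000619). Ccne1, a cyclin of S phase entry, changed by -2.67 (SE 0.44, limma adjusted p 0.00458). E2f3, an E2F factor, rose by 0.72 (SE 0.18, limma adjusted p 0.0206), and Rb1, the retinoblastoma protein that restrains E2F factors, by 0.70 (SE 0.18, limma adjusted p 0.0255). From d 9 to d 16 the 5 genes that fell were Dscc1, Asf1b, Hat1, Ccnd1 and Ccna2, and the 1 that rose was the cyclin D gene Ccnd2, named because the counts are small. With the dam as a block for the pairing, Asf1b (limma adjusted p 0.0764) and Ccnd1 (0.0575) lost their call. Leaving out 1 array at a time, Dscc1 kept its call in all 9 fits, while that of Ccna2 was lost in 4, of Ccnd1 in 5, of Asf1b in 7 and of Hat1 in 8. Ccnd2 was also the 1 control gene that fell from d 2 to d 9. It read 4.09, 3.69 and 3.78 on d 2, 2.56, 2.09 and 2.57 on d 9, and 4.42, 3.51 and 4.00 on d 16, a course with its lowest point on d 9 in each dam, as Cdc6 had in 2 of 3. Of its values 2 on d 2, 1 on d 9 and 3 on d 16 were well above background, and its call from d 9 to d 16 was lost when any of 7 of the 9 arrays was left out.

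**Figure D4:**
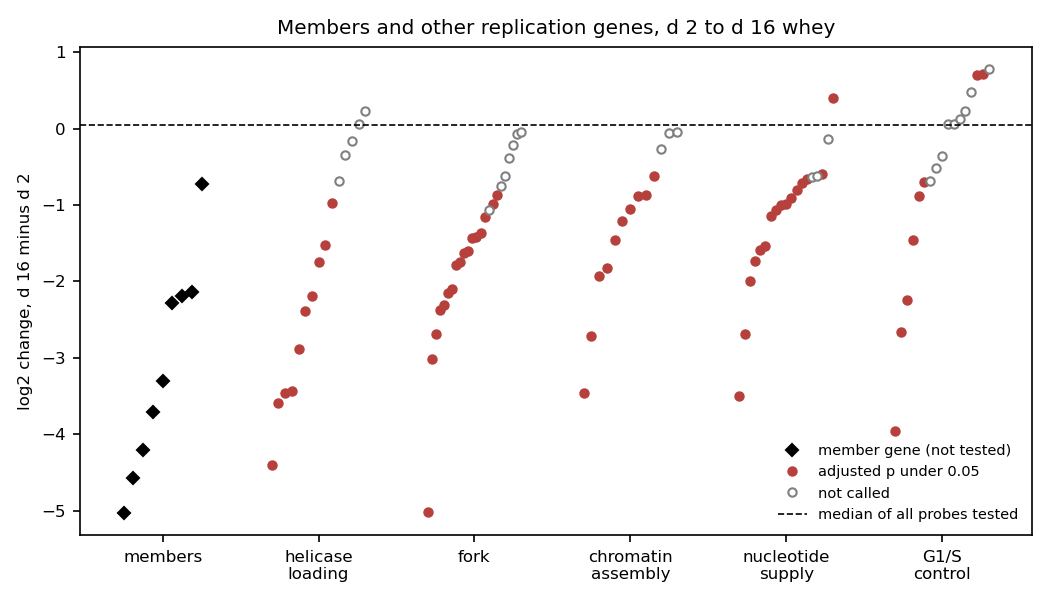
Log2 change from d 2 to d 16 whey for the 9 member genes and for 88 tested genes of 5 pathway lists, with filled circles at a limma adjusted p under 0.05 and a dashed line at the median of all probes tested, 0.04. In the first 4 lists 52 of 71 genes fell and 1 rose, and in G1/S control 6 of 17 fell and 2 rose.

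These calls moved with the scaling and the slide. Of the genes named here for their change from d 2 to d 16, Ccne1, Orc6, Tk2, E2f3 and Rb1 lost their call on the spike-in scale and kept their direction. On the spike-in scale 12 of the 88 genes fell and 0 rose between d 2 and d 16, while 0 fell and 8 rose by d 9. Of all 16849 probes, 177 fell from d 2 to d 16 on that scale and 68 by d 9. After quantile normalization 2097 and 1072 of all probes had fallen, so the calls dropped across the array too. How many of all probes rose on the spike-in scale was not recorded. With the slide as a fixed block 0 fell from d 2 to d 9, where the block leaves 1 d 2 array against 3 d 9 arrays, and within slide 2 the d 9 mean lay below the d 2 array for 68 of the 88 genes, with a median difference of -0.45.

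Markers of cell types were read on the same arrays, as whey RNA is a bulk sample in which fewer source cells and less RNA per cell cannot be told apart. All 9 markers of mammary secretory epithelium were well above background on all whey arrays, with a summed normalized signal of 697897 to 733326 on d 2 and 1023360 to 1136460 on d 16, and the milk protein genes Csn2, Csn3, Wap and Lalba were called higher and the epithelial keratin genes Krt8 and Krt18 lower on d 16. Macrophage markers had a summed signal of 95.5 to 171 on d 2, 271 to 654 on d 9 and 1107 to 1552 on d 16, so they went opposite to the replication genes. Of their 6 tested genes 5 were called higher on d 16, the complement genes C1qa, C1qb and C1qc among them, while Csf1r and Cd163 were not above background on any whey array. The 2 tested lymphocyte markers, Cd3d and Cd3g, were called higher on d 16, and Cd3e, Cd4, Cd8a and Cd79b were below background on all whey arrays. Neutrophil sums overlapped between days, at 50.2 to 63.2 on d 2 and 43.97 to 416 on d 16, with 0 of 4 tested genes called and Elane, Cxcr2 and Csf3r below background on all whey arrays. Mpo, a neutrophil enzyme gene too dim to be tested, was well above background on 3 d 2, 1 d 9 and 0 d 16 arrays. Its means of 4.25, 2.07 and 1.40 were highest on d 2, as for the replication genes. The 4 tested neutrophil genes went the other way. Their uncalled log2 changes from d 2 to d 16 were 1.23 for S100a8, 2.90 for S100a9, 1.19 for Camp and 0.27 for Ngp. Myoepithelial sums were 143 to 178 on d 2 and 220 to 281 on d 16, with 0 of 2 tested genes called and Oxtr below background. Erythroid sums were 17.5 to 33.4 on d 2 and 10.1 to 15.1 on d 16, against 46776 in serum, and Hbb, Alas2 and Ahsp were below background on all whey arrays. Their part in the level of the replication genes was not tested.

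Over the 9 whey arrays, 7563 genes outside the members with a symbol and a probe well above background on at least 6 arrays were ranked by Pearson's r with the mean profile of the members. The 8 nearest were LOC680097 (r = 0.995), Nmral1 (0.995), Nup85 (0.992), Prim1 (0.992), Hist1h1b (0.989), Topbp1 (0.989), LOC691496 (0.986) and Vac14 (0.985). Prim1, the small subunit of primase, and Topbp1, which helps to activate the helicase, are on the pathway lists, and Hist1h1b is a linker histone gene. Their size differed more than their shape, as Hist1h1b was lower on d 16 than on d 2 by 4.93 on the log2 scale and Vac14 by 0.75. These are the ends of a ranking over genes on 9 arrays that share days, and they carry no test.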

How the data were processed

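Whey of 3 dams on 3 days and 1 serum pool were measured on 10 one-colour Agilent rat arrays, where 9 whey arrays form 3 groups of 3. The authors scanned the arrays and read them with Feature Extraction 9.5.3.1, and the deposited files hold the background-corrected processed signal intensity, the mean spot intensity, the median background intensity and flags per spot. A series-wide table of quantile-normalized values has 10 columns whose names match no sample label, and it was not used. Members and gene lists were chosen with earlier results of these data known.

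Processed signals of non-control spots were quantile-normalized over the 10 arrays on the log2 scale, outlier spots were then left out and spots of a probe averaged (R 4.3.3, limma 3.58.1, data.table version 1.17.8, jsonlite 2.0.0). A probe was tested if its processed signal was above 20 and marked well above background on at least 1 whey array. limma was fitted to day over the 9 whey arrays and 16849 probes, with Benjamini-Hochberg adjustment over all of them and a threshold of 0.05 (prior degrees of freedom 1.83). A probe below background on all arrays of a day has a bound. In it each dim array counts at its lowest signal marked well above background, or at the probe's own signal if that is higher. Bounds were computed on the quantile-normalized scale alone. Where a gene had several probes, the one above background on the most whey arrays was used, then the brighter. Listed genes were named if they were the 2 with the largest fall or rise from d 2 to d 16 among those called. Genes of like pattern are the 8 with the highest r. Current names and promoters are from RefSeq on GRCr8, and probe positions are those of rn4 in the files. The code was tested on simulated data.

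Titles give each array's dam, so equal numbers are the same animal. Deviations from the day means correlated within dams at 0.169, -0.0185 and 0.112 (d 2 with d 9), 0.12, 0.0734 and 0.0449 (d 2 with d 16) and 0.218, 0.118 and 0.0218 (d 9 with d 16) over probes. The day fit has no dam term, as the methods of the study have none, and the dam as a block was an alternative. Others were the 75th percentile, spike-in probes, normexp with an offset of 50, whey arrays alone, and probe filters and choices. Slide, the methods' Tukey-Kramer test and leaving out each whey array were further alternatives. The unscaled signal was added after seeing the data. The number of arrays limits the precision, and p-values of the day fit rest on the spread between arrays of the same day. That spread mixes differences between dams with differences between arrays, and the days repeat the same 3 dams.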

Additional observations from a re-analysis of the deposited data

How the results depend on the processing

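Under normexp the median log2 change of the members was -0.76, -1.07 and -0.20 for d 9 against d 2, d 16 against d 2 and d 16 against d 9, and on the spike-in scale it was -0.42 for the first and -2.37 for the last. Without scaling it was -0.71 for d 9 against d 2. Leaving out 1 array gave -2.14 to -1.52, -3.58 to -2.96 and -1.46 to -1.14. On the spike-in scale Pcna (0.0915), Cdc6 (0.0495) and Asf1b (0.10) were higher on d 9 than on d 2, and Cdc6 was lower on d 16 than on d 9 (-0.23), as it was under normexp (-0.00393). The spike-in scale called 1 member between dams and the unscaled signal 3, with no count over all probes beside them. The d 2 excess over serum was 4.62 for Cdc45l, 5.10 for Chaf1b and 4.44 for Pcna on the spike-in scale, 1.61 for Chaf1b under normexp and 2.28 for Pcna with the 75th percentile. The normexp run added an offset of 50 to the signals, which by arithmetic makes log2 differences between dim signals smaller. The median of all probes for d 9 against d 2 also moved, to 1.517 on the spike-in scale and 1.235 without scaling. Further causes of the shifts were not tested. Of the other replication genes, 58 were lower on d 16 than on d 2, but 12 on the spike-in scale, 12 without scaling and 49 to 60 with 1 array left out. The 3 higher ones became 1 by the Tukey-Kramer test, 0 on the spike-in scale or without scaling, and 0 to 3 with 1 array left out, with 0 without d 16 of dam 2 or of dam 3 and 1 without d 2 of dam 3. For d 9 against d 2, 29 genes were lower, but 13 by the Tukey-Kramer test, and 0 with slide as a fixed block, on the spike-in scale or without scaling. Leaving out 1 array gave 17 to 36, with 17 without d 2 of dam 2 and 18 without d 9 of dam 2. Higher on d 9 were 0, but 1 with probes above background on all 9 arrays, 1 with slide as a random block and 8 on the spike-in scale. For d 16 against d 9, 5 were lower, but 0 by the Tukey-Kramer test, 10 with probes above background on all 9 arrays, 2 without a filter, 9 under normexp, 13 with slide as a random block, 9 on the spike-in scale and 2 without scaling. Leaving out 1 array gave 1 to 9, with 1 without d 16 of dam 1 or 3 or d 9 of dam 2 or 3, 2 without d 2 of dam 2, 3 without d 16 of dam 2 and 9 without d 2 of dam 1. The 1 gene higher on d 16 than on d 9 became 0 by the Tukey-Kramer test, by probes above background on all 9 arrays, without a filter, under normexp, on the spike-in scale and without scaling, and 0 to 1 with 1 array left out. With the dam as a block for the pairing, 57 and 28 genes were lower on d 16 and on d 9 than on d 2, and 3 on d 16 than on d 9. Calls over all probes moved with the setting too. Lower on d 16 than on d 2 were 2097, but 177 on the spike-in scale and 158 without scaling. For d 9 against d 2, 1072 became 398 by the Tukey-Kramer test, 68 on the spike-in scale and 51 without scaling. For d 16 against d 9, 144 became 0 by the Tukey-Kramer test, 71 with the dam block and 57 without scaling. The 144 became 448 under normexp, 375 with slide as a random block and 155 on the spike-in scale. Values below the array floor, most of them on d 16, carry no order.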
